A study of Homo sapiens with 24 samples.

Results

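Polyadenylated RNA of A549 cells, an established human lung adenocarcinoma line, was sequenced, and 8 of the 58302 genes in the table of expression values are described here: MUC5AC, MUC5B, NPY4R, NPY4R2, CDA, TGM2, TNS4 and TMEM265. These genes were picked by name because most of them had been seen at far higher levels in cells given GPD1 than in vector cells, so their differences between GPD1 and vector cells are given below as a description, without a test. Levels are in FPKM, which scales reads to exon length and library depth, a unit inferred from the values. A gene was tested if it averaged 1 FPKM or more across the 12 libraries. That filter left 12607 genes, among them 7 of the 8. MUC5B, with a mean of 0.444 FPKM, was under it.

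The cells had been transduced with a blank lentivirus (vector cells) or with a lentivirus for overexpression of GPD1 (GPD1 cells), and were cultured in medium with 10 mM metformin or without it. That gave 4 groups of 3 libraries: untreated vector cells, vector cells with metformin, untreated GPD1 cells and GPD1 cells with metformin. The labels name no promoter, clone, time of treatment or separate transductions, so a p-value here speaks only for the spread among these libraries, part or all of which may be technical. The series also holds 12 samples of 786-O cells, not analysed here. GPD1, the cytosolic enzyme that makes glycerol-3-phosphate from dihydroxyacetone phosphate and NADH, lay between 0.0248 and 0.103 FPKM in the 6 vector libraries and between 13.3 and 16.8 FPKM in the 6 GPD1 libraries, low in all vector and high in all GPD1 libraries, as their labels say.

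MUC5AC and MUC5B are the gel-forming mucins of airway mucus, very large secreted glycoproteins whose central repeats carry dense O-linked sugars. MUC5AC is the mucin of surface goblet cells and of the gastric surface, while MUC5B is made by glands and by secretory cells of the airways. Their genes stand side by side on chromosome 11. In airway epithelium, goblet cells form under the transcription factor SPDEF, and signalling through the EGF receptor is a known inducer of MUC5AC. The other members are a receptor for pancreatic polypeptide in 2 gene copies (NPY4R and NPY4R2), an enzyme of pyrimidine salvage (CDA), a protein cross-linking enzyme (TGM2), a tensin of focal adhesions (TNS4) and a small transmembrane protein (TMEM265).

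Some of these genes share sequence, which bears on how reads could be told apart. NPY4R (chr10:46461099-46465881, minus strand, GRCh38) and NPY4R2 (chr10:47918739-47923524, plus strand) are near-identical copies: their transcripts of 1956 bases in GENCODE 29 differ at 4 positions (99.8% identity), and the longest run without a difference is 819 bases. In the coding sequence of 1128 bases 3 positions differ. The stretch of 90 bases around the first of these, which a read must cross to be told apart there, is shown for both, with the base that differs in capitals (NPY4R chr10:46462460-46462549, minus strand; NPY4R2 chr10:47922074-47922163, plus strand).
NPY4R: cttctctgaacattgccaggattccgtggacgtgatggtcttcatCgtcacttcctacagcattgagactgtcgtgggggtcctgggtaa
NPY4R2: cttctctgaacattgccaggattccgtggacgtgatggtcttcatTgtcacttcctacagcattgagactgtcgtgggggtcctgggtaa

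The 250 bases before the RefSeq starts of the copies (GRCh38.p14) differ at 1 position, again in capitals. They are shown as sequence only, and a part of them in the levels of the copies was not tested (NPY4R chr10:46465959-46466208, minus strand; NPY4R2 chr10:47918412-47918661, plus strand).
NPY4R: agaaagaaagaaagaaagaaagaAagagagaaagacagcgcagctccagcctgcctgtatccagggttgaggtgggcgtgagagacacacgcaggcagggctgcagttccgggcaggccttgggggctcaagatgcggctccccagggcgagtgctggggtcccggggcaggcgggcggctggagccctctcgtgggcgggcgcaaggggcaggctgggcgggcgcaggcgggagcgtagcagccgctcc
NPY4R2: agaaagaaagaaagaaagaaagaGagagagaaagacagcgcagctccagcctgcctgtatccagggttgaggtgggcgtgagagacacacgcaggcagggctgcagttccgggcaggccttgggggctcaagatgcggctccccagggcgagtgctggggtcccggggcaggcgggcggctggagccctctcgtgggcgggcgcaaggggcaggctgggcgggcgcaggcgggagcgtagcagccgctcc

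The RefSeq table held a promoter for 3 members, NPY4R, NPY4R2 and CDA. Only the 250 bases before the start were searched, on both strands. The GC box GGGCGG occurred there 3 times in NPY4R, 3 times in NPY4R2 and 0 times in CDA. Of all 35116 promoters 42.6% hold it there. The TATA box TATAAA (10.7% of promoters), the AP-1 site TGANTCA (6.6%) and the antioxidant response element core TGACNNNGC (10.9%) were in none of the 3 windows. A match is letters in a window only.

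The mucins carry repeats of their own, which is why their most frequent word of 24 bases is shown. In MUC5AC (chr11:1157953-1201138, plus strand) this word, with a copy at chr11:1185245-1185268, occurred 16 times in a coding sequence of 16965 bases. In MUC5B (chr11:1223066-1262172, plus strand) it occurred 6 times in 17289 bases, with a copy at chr11:1244252-1244275. Words of 24 bases found more than once covered 52.4% of the MUC5AC and 49.1% of the MUC5B coding bases, and the coding sequences shared 173 such words. How reads that match several places were assigned is not given in the sources used here.
MUC5AC: ctcctacaaccagcacaacctctg
MUC5B: accccagggaccacctggatcctc

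With NPY4R and NPY4R2 taken as separate genes, MUC5AC was the most abundant of the 8 per length in untreated GPD1 cells. It measured 6.89, 6.82 and 6.27 FPKM in the 3 untreated vector libraries and 117, 129.9 and 128 FPKM in the 3 untreated GPD1 libraries. With metformin the vector libraries gave 4.64, 4.23 and 4.68 FPKM and the GPD1 libraries 97.7, 91.0 and 92.4 FPKM. The 4 groups did not overlap, and their order from lowest to highest was vector with metformin, vector, GPD1 with metformin, GPD1. The means of untreated cells were 6.66 ± 0.340 FPKM (SD, n = 3) in vector and 125 ± 6.76 FPKM in GPD1 cells, a ratio of 18.8, and the ratio with metformin was 20.8. In difference of log2(FPKM + 1), the scale of all differences below, these are 4.04 and 4.10, the second and the third highest of 12607 genes. An estimated 1184 to 39363 reads stood behind each MUC5AC value. Read numbers here and below are inferred from the values with the smallest depth that fits, and a whole multiple of it would fit as well.

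MUC5B went the other way, although it was picked together with genes that were higher in GPD1 cells. Untreated vector libraries gave 1.10, 0.968 and 1.25 FPKM and untreated GPD1 libraries 0.139, 0.128 and 0.162 FPKM, so that the mean in GPD1 cells was 7.76 times lower. With metformin the values were 0.339, 0.302 and 0.317 FPKM in vector cells and 0.188, 0.185 and 0.251 FPKM in GPD1 cells, 1.54 times lower. All GPD1 libraries lay under all vector libraries. These are low levels, with 35 to 339 reads a library. The ratio of MUC5AC to MUC5B per length was 5.02 to 7.05 in untreated vector libraries, 13.7 to 14.8 in vector libraries with metformin, 792 to 1016 in untreated GPD1 libraries and 369 to 520 in GPD1 libraries with metformin.

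**Figure D1:**
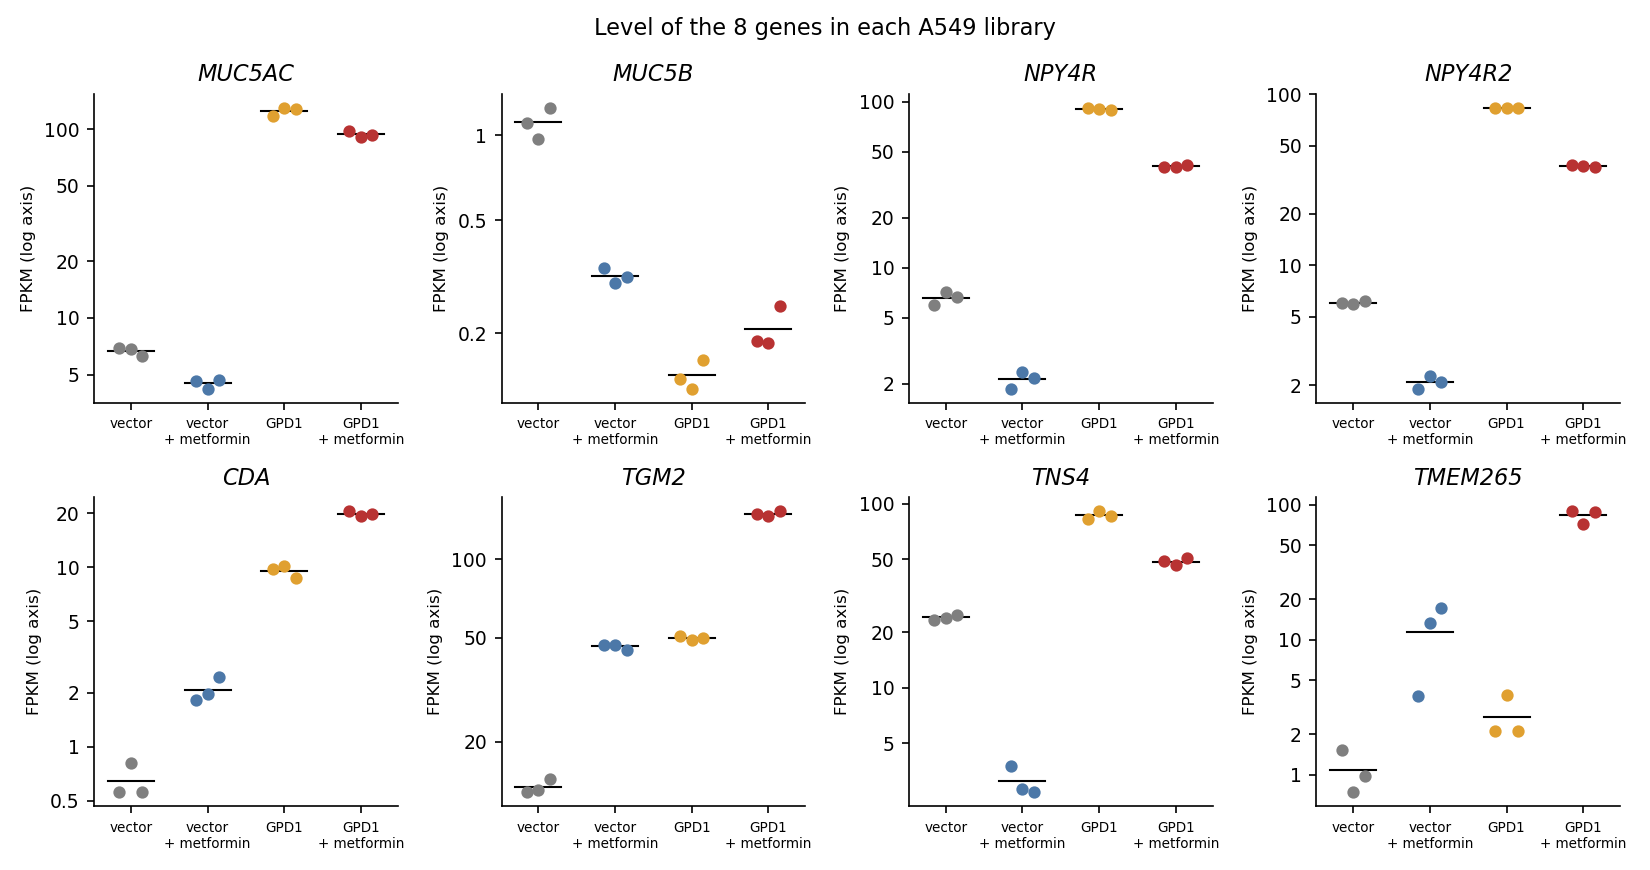
Level of the 8 genes in each of the 12 A549 libraries, in FPKM on a log axis whose range differs between panels. Points are libraries and bars are group means (n = 3). In 7 of the panels the GPD1 groups lie above the vector group of the same treatment, and in the MUC5B panel they lie below it.

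The receptor copies stood close together in every library. NPY4R encodes the Y4 receptor, a G protein-coupled receptor that binds pancreatic polypeptide. It measured 5.94, 7.18 and 6.70 FPKM in untreated vector libraries, 1.88, 2.36 and 2.18 FPKM in vector libraries with metformin, 92.0, 90.5 and 88.4 FPKM in untreated GPD1 libraries and 40.7, 40.6 and 41.7 FPKM in GPD1 libraries with metformin. NPY4R2 had 6.03, 5.92 and 6.16 FPKM, then 1.91, 2.25 and 2.08 FPKM, then 83.4, 83.5 and 82.9 FPKM, and then 38.8, 38.1 and 37.4 FPKM, in the same order of groups. For both copies no groups overlapped and the order of the groups was that of MUC5AC.

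The ratio of NPY4R to NPY4R2 stayed between 0.984 and 1.21 over the 12 libraries, and with 4 differing positions per transcript these values cannot be read as independent measurements of the copies. GPD1 cells exceeded vector cells 13.7 times for NPY4R and 13.8 times for NPY4R2 without metformin, and 19.2 and 18.3 times with it. The ligands and the other receptors of the family were under the filter: none of the 7 other listed genes (NPY, PYY, PPY, NPY1R, NPY2R, NPY5R and NPY6R) was tested.

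CDA, cytidine deaminase (chr1:20588948-20618908, plus strand), converts cytidine and deoxycytidine to uridine forms and inactivates cytidine-like drugs. Untreated vector libraries had 0.563, 0.814 and 0.560 FPKM, from only 7 to 14 reads each. Vector libraries with metformin had 1.82, 1.97 and 2.43 FPKM, untreated GPD1 libraries 9.73, 10.1 and 8.66 FPKM, and GPD1 libraries with metformin 20.5, 19.2 and 19.9 FPKM. The groups rose in that order without overlap. GPD1 cells were 14.7 times higher without metformin and 9.59 times higher with it, and with so few reads in untreated vector cells the first ratio is the less precise.

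TGM2, transglutaminase 2 (chr20:38127387-38166578, minus strand), cross-links proteins in a calcium-dependent way and acts inside and outside the cell. Its values were 12.8, 13 and 14.3 FPKM in untreated vector libraries, 47.1, 46.8 and 44.9 FPKM in vector libraries with metformin, 50.6, 48.9 and 49.9 FPKM in untreated GPD1 libraries, and 149, 146 and 153 FPKM in GPD1 libraries with metformin. The middle groups, vector with metformin and untreated GPD1, did not overlap, but their means differed only 1.08 times. GPD1 cells were 3.72 times higher than vector cells without metformin and 3.23 times higher with it.

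TNS4 (chr17:40475828-40501597, minus strand), a tensin that binds integrin tails and lacks the actin-binding part of other tensins, fell furthest with metformin in vector cells. It measured 23.5, 24.1 and 25.0 FPKM in untreated vector libraries and 3.76, 2.83 and 2.72 FPKM with metformin. In GPD1 cells it measured 82.7, 91.4 and 86.2 FPKM untreated and 48.9, 46.3 and 50.7 FPKM with metformin. No groups overlapped. GPD1 cells were 3.58 times higher without metformin and 15.7 times higher with it.

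TMEM265 (chr16:30740381-30744281, plus strand) was low in both untreated groups, at 1.52, 0.745 and 0.984 FPKM in vector and 2.09, 3.87 and 2.12 FPKM in GPD1 libraries. With metformin it measured 3.81, 13.2 and 17.1 FPKM in vector cells and 89.6, 72.2 and 87.6 FPKM in GPD1 cells. Replicate 1 of the vector libraries with metformin stood below replicates 2 and 3, and inside the range of untreated GPD1 libraries. All 995 exon bases of TMEM265 are also exon bases of AC106886.5 on the same strand in GENCODE 29, and 32.9% are exon bases of SRCAP. AC106886.5, named here for this overlap only, averaged 1.36, 9.95, 2.20 and 7.09 FPKM in vector, vector with metformin, GPD1 and GPD1 with metformin cells, and SRCAP 8.11, 4.79, 7.43 and 1.68 FPKM. Group means were highest in GPD1 cells with metformin for TMEM265, in vector cells with metformin for AC106886.5 and in untreated vector cells for SRCAP. These levels may depend on which gene received the reads of shared bases, which was not tested. How shared bases were counted is not given in the sources used here.

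Counting every member, 7 of 8 had higher means in GPD1 than in vector cells both without and with metformin, and for all 8 the 3 libraries of one cell type did not overlap those of the other in either condition. The same absence of overlap held for 41.4% of all tested genes without metformin (18.8% higher, 22.7% lower) and for 64.8% with it (27.7% higher, 37.1% lower). By the limma test, 21.3% of the 12607 tested genes differed between untreated GPD1 and vector cells at an adjusted p under 0.05 (on log2(FPKM + 1), Benjamini-Hochberg), 9.99% higher and 11.3% lower. With metformin it was 60.0%, 25.0% higher and 35.0% lower. As the members were chosen on these contrasts, nothing is read from their count. Their differences without metformin were 4.04 for MUC5AC, 3.59 for NPY4R, 3.58 for NPY4R2, 2.68 for CDA, 1.82 for TGM2, 1.8 for TNS4 and 0.81 for TMEM265, with standard errors of 0.04 to 0.09 except for TMEM265 (0.41).

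Metformin, a biguanide known to slow mitochondrial respiration at complex I, is the treatment. Apart from TMEM265, treated libraries entered the choice of genes only through GPD1 against vector cells with metformin. Each contrast of metformin within a cell type shares libraries with that choice, and the average of both cell types below is the contrast independent of it. With metformin, MUC5AC, NPY4R, NPY4R2 and TNS4 fell and CDA, TGM2 and TMEM265 rose, in vector cells and in GPD1 cells alike, and in every case the treated and untreated libraries did not overlap, as for 76.6% of all tested genes in vector cells (32.4% higher, 44.2% lower) and 77.1% in GPD1 cells (27.5% higher, 49.6% lower). In vector cells all 7 tested members passed the limma test at an adjusted p under 0.05, 3 higher and 4 lower. In GPD1 cells the 6 tested members other than TMEM265 passed, 2 higher and 4 lower. Both counts hold NPY4R and NPY4R2 as separate members, though their values cannot be read as independent. The background is high: 74.6% of tested genes passed in vector cells (31.3% higher, 43.3% lower) and 74.2% in GPD1 cells (26.1% higher, 48.0% lower), so passing alone says little about the members, and their sizes are given next. The level of TMEM265 in GPD1 cells with metformin was known when the genes were picked, so its value there is a description.

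In vector cells TNS4 fell by 2.63 ± 0.08 (SE) on the log2(FPKM + 1) scale (limma adjusted p = 6.98e-10), NPY4R by 1.28 ± 0.07 and NPY4R2 by 1.20 ± 0.04. MUC5AC fell by 0.47 ± 0.06 (adjusted p = 1.48e-05), the smallest change of the 7 there. TGM2 rose by 1.72 ± 0.04, CDA by 0.90 ± 0.09 and TMEM265 by 2.38 ± 0.41 (adjusted p = 0.000283). Without replicate 1 of the treated vector libraries, TMEM265 rose by 2.96. In ratios of means, TNS4 was 7.81 times lower, NPY4R 3.09 times lower, TGM2 3.46 times higher and CDA 3.21 times higher.

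In GPD1 cells MUC5AC fell by 0.41 ± 0.06 (limma adjusted p = 4.83e-05), NPY4R by 1.12 ± 0.07, NPY4R2 by 1.11 ± 0.04 and TNS4 by 0.82 ± 0.08 (adjusted p = 5.63e-06). CDA rose by 0.99 ± 0.09 and TGM2 by 1.57 ± 0.04. TMEM265 was higher by 4.54 ± 0.41. Averaged over both cell types, MUC5AC fell by 0.44 ± 0.04 (adjusted p = 1.08e-06), TNS4 by 1.73 ± 0.06, NPY4R by 1.20 ± 0.05 and NPY4R2 by 1.15 ± 0.03, while TGM2 rose by 1.64 ± 0.03 and CDA by 0.95 ± 0.06. Of all tested genes 80.4% passed in that average, 31.2% higher and 49.3% lower.

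The share of FPKM on genes of the mitochondrial genome moved with metformin, from 30.2% to 33.2% in untreated libraries down to 10.3% to 14.9% in treated ones, and such a share changes what every other gene's FPKM is relative to. The median difference of all tested genes with metformin was -0.10 in vector and -0.20 in GPD1 cells. Depending on the scaling (as deposited, median ratios, upper quartiles, or totals without mitochondrial genes) it ran from -0.34 to 0.02 in vector cells and from -0.49 to -0.01 in GPD1 cells. Relative to that median, MUC5AC lay between -0.39 and -0.36 in vector cells and between -0.31 and -0.15 in GPD1 cells over the scalings. In vector cells all 7 tested members, and in GPD1 cells those other than TMEM265, kept their direction and their side of the threshold under each scaling. Among all called genes the share that was higher with metformin moved from 42.0% to 27.8% in vector cells and from 35.2% to 17.3% in GPD1 cells with totals without mitochondrial genes, while with median ratios it was 50.5% in vector and 49.2% in GPD1 cells. In the average over cell types it moved from 38.8% to 22.5% and to 49.9% with the same settings. For GPD1 against vector cells with metformin it moved from 41.7% to 54.4% with upper quartiles, 51.1% with median ratios and 32.6% with totals without mitochondrial genes.

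MUC5B was tested only in a fit without the filter, over 35437 genes. There it fell by 0.67 ± 0.06 with metformin in vector cells (limma adjusted p = 5.79e-06, where 40.4% of genes passed), and its difference in GPD1 cells was 0.08 ± 0.06 (adjusted p = 0.339, where 37.0% passed). In FPKM the mean was 3.47 times lower with metformin in vector cells and 1.46 times higher in GPD1 cells. The difference between the cell types was not tested.

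The difference between GPD1 and vector cells was larger with metformin than without it by 1.81 ± 0.12 for TNS4 and by 2.15 ± 0.57 for TMEM265, given without a test because the contrasts that make it chose the genes. Leaving out replicate 1 of the treated vector libraries gave 1.57 for TMEM265. For the other 5 tested members the change was between -0.15 and 0.15, with standard errors of 0.06 to 0.12. Among them it moved most for CDA over the alternatives given below, from -0.49 to 0.25.

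**Figure D2:**
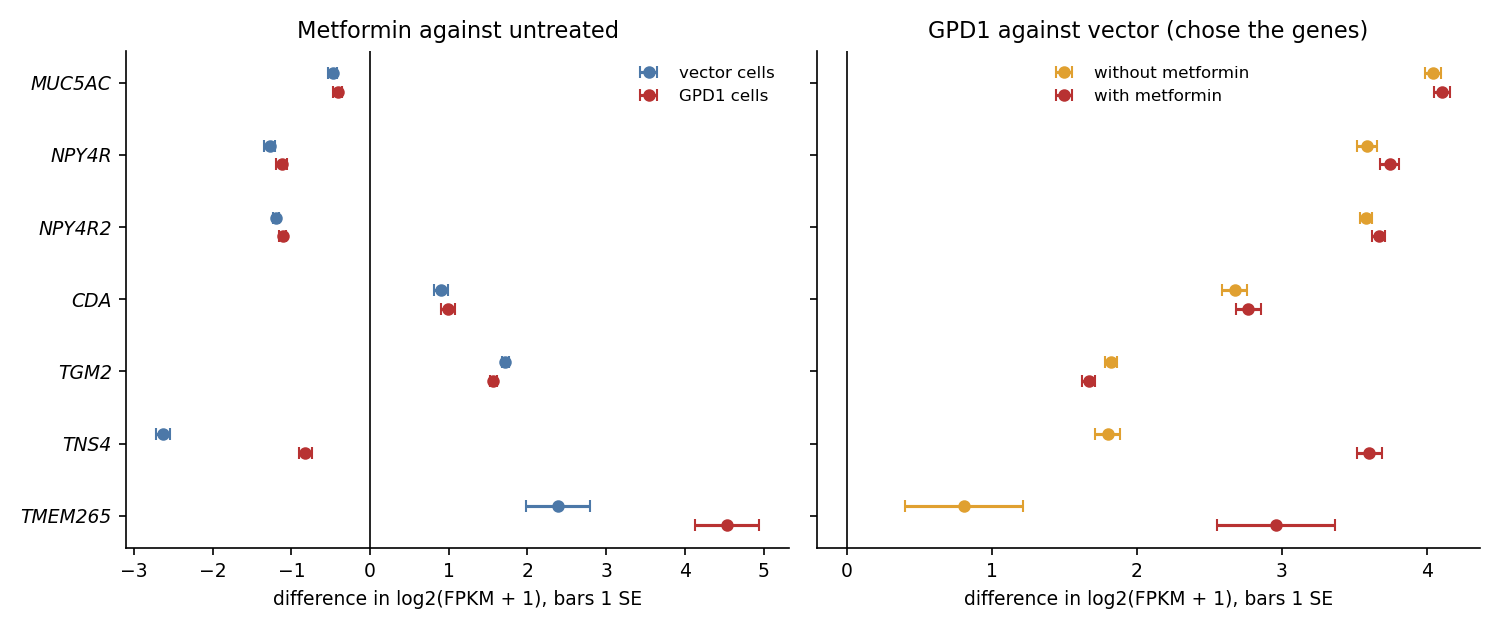
Differences in log2(FPKM + 1) of the 7 tested members, with bars of 1 SE. The left panel shows metformin against untreated in vector and in GPD1 cells, where 4 genes lie left of 0 and 3 right of it in both cell types. The right panel shows GPD1 against vector cells, the contrasts that chose the genes, where TNS4 and TMEM265 lie further right with metformin.

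The counts of list genes below stand beside the shares of all tested genes that passed in GPD1 against vector cells, 9.99% higher and 11.3% lower without metformin and 25.0% higher and 35.0% lower with it. Nothing particular to a list is read from its count. Genes of mucous cells were followed in a list of 29 regulators and secretory genes, of which 12 were tested. Without metformin 4 of these 12 were higher in GPD1 than in vector cells and 0 lower, with a median difference of 0.08 against -0.01 over all tested genes. With metformin 6 were higher and 1 lower, with a median of 0.32 against -0.05. SPDEF, the goblet cell transcription factor, averaged 1.13 ± 0.163 FPKM in vector, 1.86 ± 0.0765 in vector with metformin, 4.81 ± 0.594 in GPD1 and 12.5 ± 0.653 in GPD1 cells with metformin (SD, n = 3). It was higher in GPD1 cells by 1.45 without and 2.24 with metformin (limma adjusted p = 5.92e-07 and 8.1e-09). Unlike MUC5AC it rose with metformin in both cell types, by 0.43 and 1.22.

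AGR2, a disulfide isomerase of the endoplasmic reticulum needed for mucin folding, averaged 9.89, 14.3, 20.8 and 31.0 FPKM in the same order of groups and was higher in GPD1 cells by 1.00 and 1.06. FCGBP, a protein of the mucus gel, was higher by 0.43 and 0.59 (limma adjusted p = 0.00406 and 0.000111). RAB27A, a GTPase of secretory granule docking, was higher by 0.26 and 0.18, and it was added to the named genes after its values were seen. KLF4, a factor of goblet cell differentiation in the gut, went from 2.86 FPKM in vector to 0.524 FPKM in GPD1 cells with metformin, lower by 1.34 (adjusted p = 2.57e-08), while without metformin the difference was -0.03 (adjusted p = 0.785). The trefoil peptide TFF1, which accompanies MUC5AC on the gastric surface, was under the filter, with 0.00, 0.104 and 0.00 FPKM in untreated vector and 1.62, 1.15 and 0.231 FPKM in untreated GPD1 libraries.

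Other mucins were scarcely present. Of 6 secreted mucins only MUC5AC passed the filter, and MUC2 and MUC6 averaged 0.0284 and 0.0800 FPKM over the 12 libraries. Of 12 membrane mucins MUC13 alone was tested. It averaged 1.81, 2.13, 4.15 and 2.91 FPKM in vector, vector with metformin, GPD1 and GPD1 with metformin cells, and was higher in GPD1 cells by 0.88 without metformin and 0.33 with it (limma adjusted p = 0.000225 and 0.0236). The second of these calls was lost without replicate 3 of the treated vector libraries (adjusted p = 0.0898).

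Of 25 enzymes of mucin-type O-glycosylation, which build the sugars of the mucin repeats, 15 were tested. Without metformin 1 was higher in GPD1 cells (GALNT18) and 3 lower (ST3GAL1, GALNT7 and GALNT14), with a median of 0.08. With metformin 6 were higher and 4 lower, with a median of 0.00. ST3GAL1, which caps core 1 sugars with sialic acid, averaged 5.05 FPKM in vector and 1.73 FPKM in GPD1 cells, lower by 1.15 without and 0.94 with metformin (limma adjusted p = 4.33e-07 and 3.17e-07). GALNT18 was higher by 0.44 and 1.02. With metformin, GALNT1, a transferase that starts the chains, was higher in GPD1 than in vector cells by 1.48. C1GALT1, the core 1 synthase, was lower there by 0.62. Without metformin their differences were 0.19 and 0.05 (limma adjusted p = 0.329 and 0.636). GALNT1 averaged 10.95, 3.21, 12.6 and 10.7 FPKM in vector, vector with metformin, GPD1 and GPD1 with metformin cells.

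**Figure D3:**
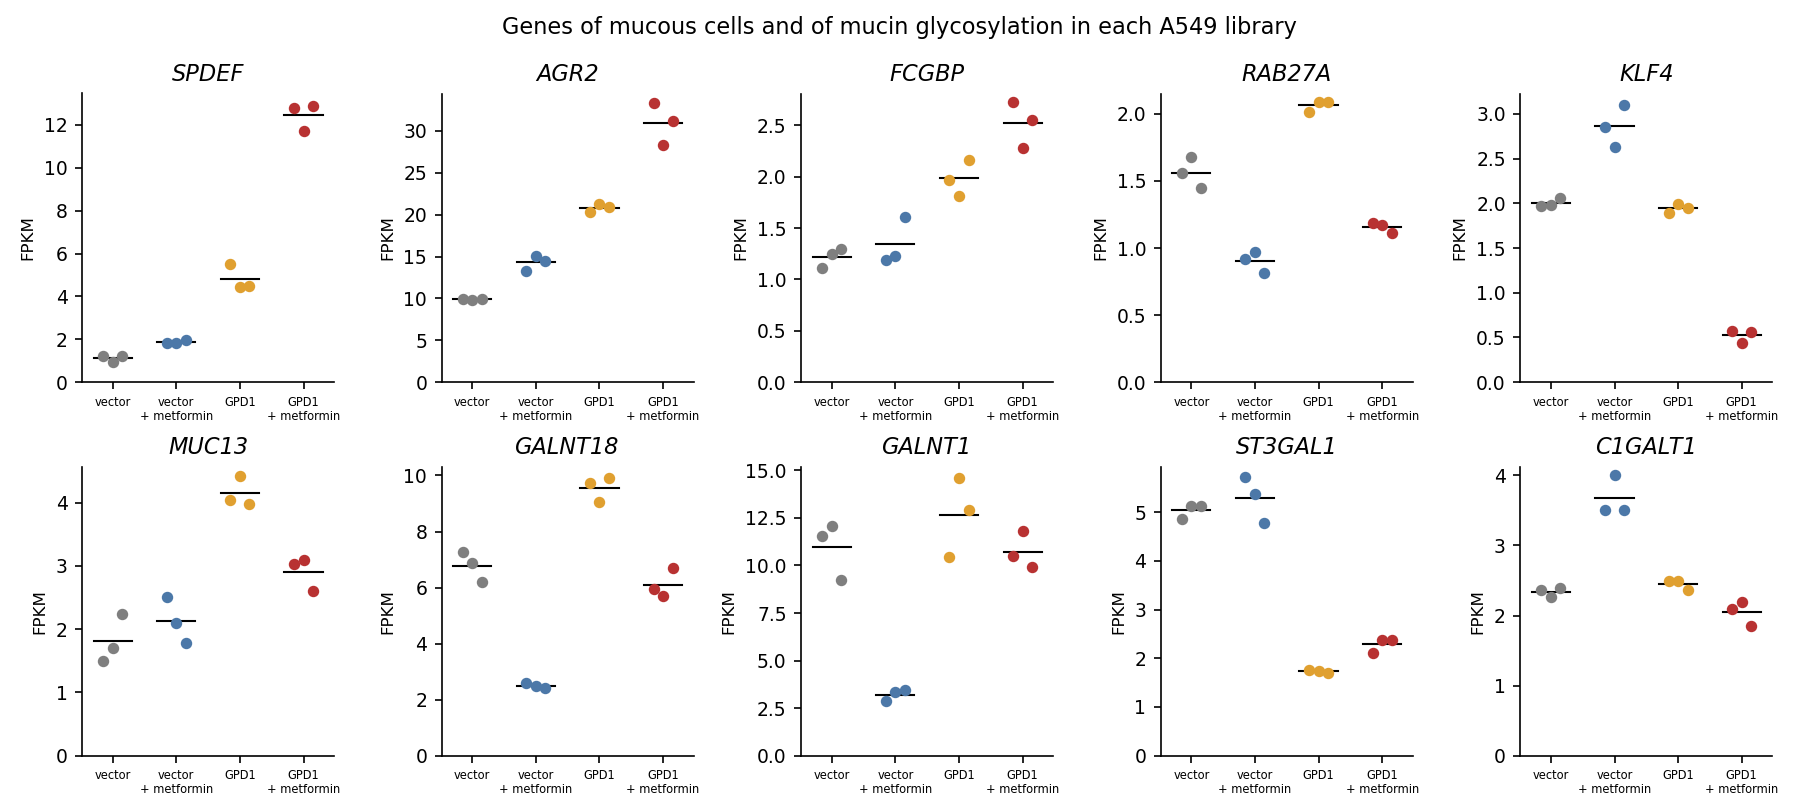
Level of 10 genes of mucous cells and of mucin glycosylation in each A549 library, in FPKM on axes that start at 0. Points are libraries and bars are group means (n = 3). SPDEF and AGR2 are highest in GPD1 cells with metformin, and ST3GAL1 is lower in both GPD1 groups than in both vector groups.

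A list of 13 genes held ligands and receptors of the EGF receptor family and ERRFI1, an inhibitor of the receptor. Without metformin 1 of 8 tested genes was higher in GPD1 cells (HBEGF) and 4 were lower (the ligands AREG, EREG and TGFA, and the inhibitor ERRFI1), with a median of -0.26 against -0.01 over all genes. AREG averaged 21.3 FPKM in vector and 10.7 FPKM in GPD1 cells, EREG 16.8 and 8.99 FPKM, and TGFA 5.11 and 2.48 FPKM. The limma adjusted p was 2.42e-06, 1.87e-07 and 7.2e-06. With metformin 3 were higher and 3 lower, with a median of 0.01. The receptor EGFR averaged 13.3 FPKM in vector and 13.6 FPKM in GPD1 cells, and 2.85 and 7.48 FPKM with metformin, a difference of 1.14 (adjusted p = 2.79e-06).

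TGM2 is a known target of retinoic acid, and a list of 18 genes of retinoid response was followed, of which 13 were tested. Without metformin 6 were higher and 2 lower in GPD1 cells, with a median of 0.12, and with metformin 5 were higher and 6 lower, with a median of -0.01. RARRES1, named for its response to retinoids, averaged 0.503 FPKM in vector and 2.00 FPKM in GPD1 cells and was higher by 1.00 and 1.56. STRA6, a retinol transporter, averaged 5.97 and 11.2 FPKM and was higher by 0.80 and 0.69 (limma adjusted p = 1.44e-06 and 7.07e-07). TGM2 stood alone in its family, since none of the 8 other transglutaminase genes listed was tested.

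Around CDA, 17 other genes of pyrimidine salvage and nucleoside transport were tested. Without metformin 1 was higher (NT5C) and 3 lower in GPD1 cells, with a median of -0.12, and with metformin 7 were higher and 3 lower, with a median of 0.08. SAMHD1, which degrades deoxynucleotides, was lower by 0.32 without metformin and higher by 0.86 with it (limma adjusted p = 0.00517 and 9.96e-07). Around TNS4, 21 other tensin, integrin and focal adhesion genes were tested. Without metformin 4 were higher and 5 lower, with a median of -0.02, and with metformin 12 were higher and 5 lower, with a median of 0.17, where 25.0% of all tested genes were higher and 35.0% lower. The tensins TNS2 and TNS3 were among the genes higher in GPD1 cells without and with metformin. Both also passed as lower with metformin in vector and in GPD1 cells, the directions of TNS4. ITGB1, the integrin chain most widely shared, was lower in GPD1 cells by 0.67 and 0.40. ITGB4, the chain of hemidesmosomes, was lower by 0.45 without metformin and higher by 0.68 with it (adjusted p = 1.75e-05 and 1.35e-07).

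The genes next to the members were taken as the 3 nearest tested genes on each side. Without metformin 6 of 42 such neighbours were higher and 4 lower in GPD1 than in vector cells, with a median of -0.01. With metformin 8 were higher and 19 lower, with a median of -0.23 against -0.05 over all genes. The nearest tested genes of MUC5AC were AP2A2 and TOLLIP. Without metformin AP2A2 differed by -0.15 (limma adjusted p = 0.269) and TOLLIP by 0.57 (adjusted p = 0.0452). The TOLLIP call was lost without untreated vector replicate 3 (limma adjusted p = 0.148). With metformin the differences were 0.15 for AP2A2 and -0.54 for TOLLIP, the opposite direction for both. CAMK2N1, near CDA, was lower by 0.85 and 1.07.

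ANXA8L1, whose span holds NPY4R on the other strand, averaged 4.88 and 10.8 FPKM in untreated vector and GPD1 cells and 0.707 and 3.86 FPKM with metformin, higher in GPD1 cells by 1.00 and 1.51. Its exons do not overlap those of NPY4R. It has a near copy, ANXA8, looked at after these values were seen, which was higher by 1.30 and 1.29, and how reads were divided between these copies is not given in the sources used here. AC018629.1, the nearest tested gene beside TNS4, averaged 5.57, 0.731, 17.8 and 1.35 FPKM in vector, vector with metformin, GPD1 and GPD1 with metformin cells, higher in GPD1 cells by 1.51 without and 0.46 with metformin. The latter call was lost without replicate 3 of the treated GPD1 libraries (limma adjusted p = 0.0762).

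**Figure D4:**
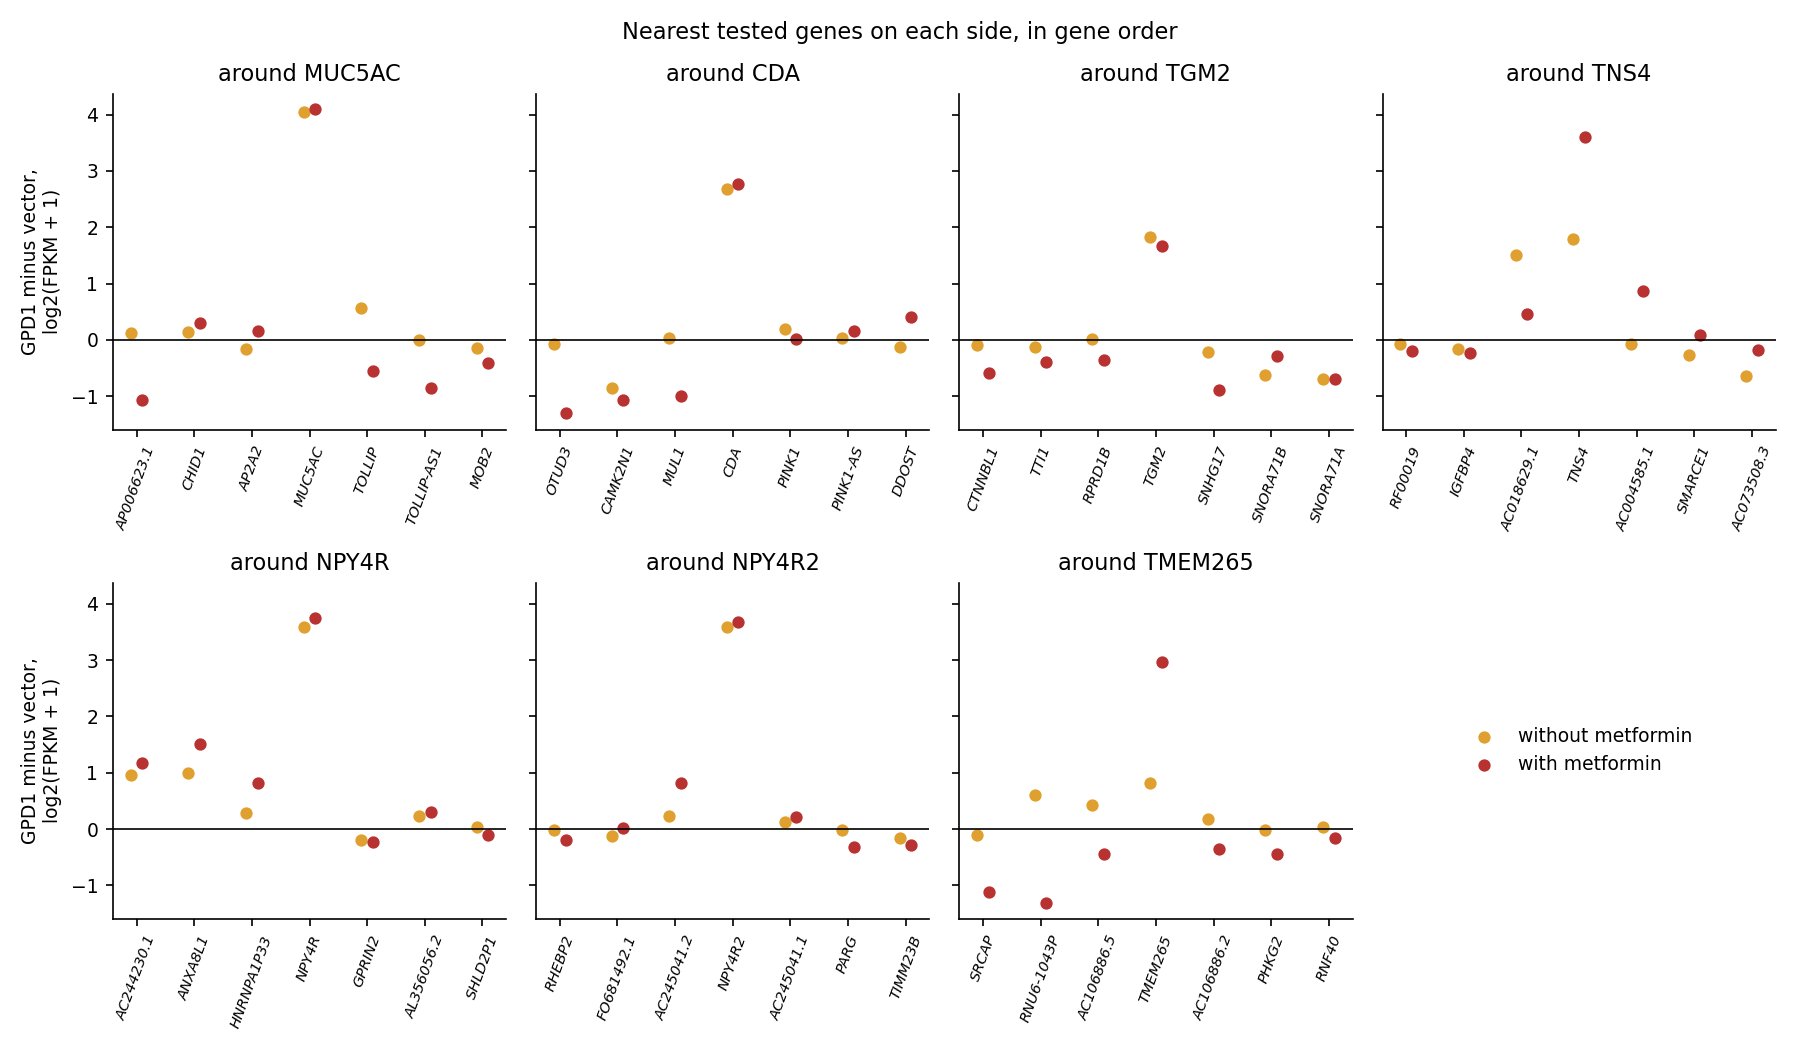
Difference between GPD1 and vector cells in log2(FPKM + 1) for 7 members (centre of each panel) and the 3 nearest tested genes on each side, in gene order without distances. The members stand above their neighbours, and AC018629.1, ANXA8L1 and AC244230.1 are higher in GPD1 cells as well.

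The genes whose pattern over the 12 libraries was most like that of MUC5AC were found by the root mean square difference of log2(FPKM + 1) after centring, among 4885 protein-coding genes averaging 5 FPKM or more, whose median distance was 2.09. The closest were GPD1 (0.207), NPY4R2 (0.425), NPY4R (0.441), GPX2 (0.949), CDA (0.973), TNS4 (1.04), NAMPT (1.26) and SPDEF (1.30). The measure was taken over all 4 groups, so it mostly reads the gap between vector and GPD1 cells, on which 4 of these 8 had been chosen. GPX2, a glutathione peroxidase of epithelia, averaged 1.76, 4.18, 17.5 and 32.6 FPKM in vector, vector with metformin, GPD1 and GPD1 with metformin cells, and was also the gene most like CDA (0.156). NAMPT, which makes the NAD precursor nicotinamide mononucleotide, averaged 17.5, 25.0, 69.3 and 67.3 FPKM. The gene most like TGM2 was FA2H (0.239), a fatty acid hydroxylase, and the gene most like TMEM265 was S100P (0.669), a calcium-binding protein.

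**Figure D5:**
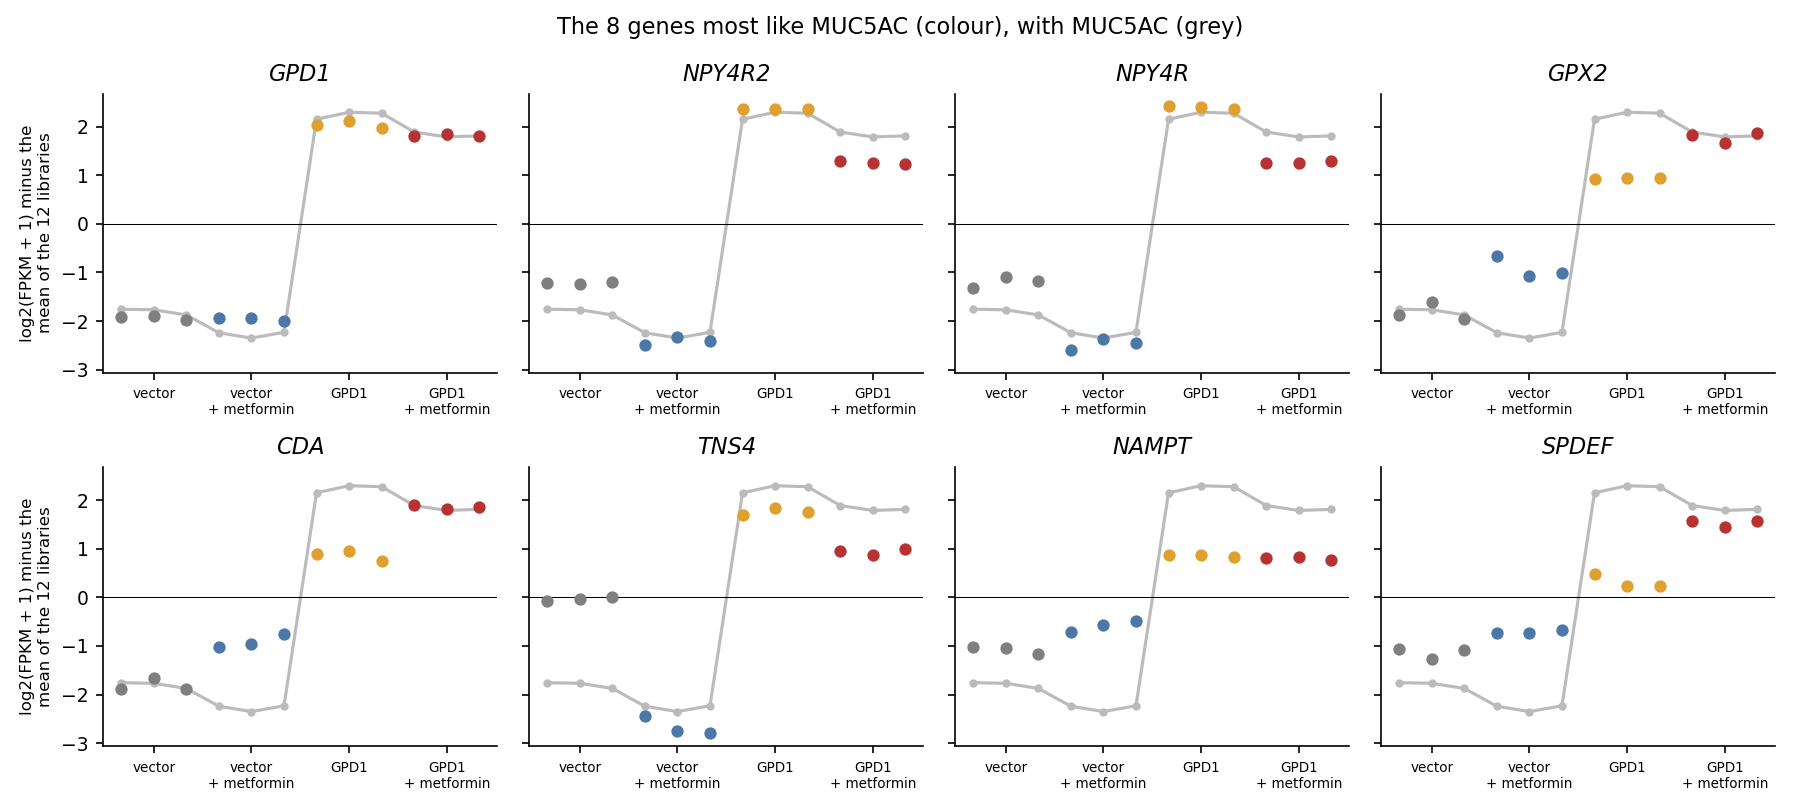
Level of the 8 genes most like MUC5AC over the 12 libraries, as log2(FPKM + 1) minus the mean of the gene, coloured by group, with MUC5AC as a grey line. All 8 lie higher in GPD1 than in vector cells. GPX2, CDA and SPDEF rise with metformin where MUC5AC falls.

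The libraries differed little in depth, from 13.3 to 17.9 in units of 1e6 reads as inferred from the steps of their low values. These are the smallest depths that fit those steps. Keratins of simple epithelium were high, with KRT8 averaging 67.9 to 111 FPKM and KRT18 108 to 145 FPKM over the groups, but KRT19 did not exceed 0.0869 FPKM in any library. Of 9 alveolar markers 1 averaged 1 FPKM or more, the lipid transporter ABCA3 with 7.26 to 15.2 FPKM, and the sum of all 9 ran from 8.32 to 16.8 FPKM. The surfactant gene SFTPC reached at most 0.0683 FPKM and SFTPA1 was at 0 in all libraries. In these bulk libraries fewer cells of a kind and less RNA per cell cannot be told apart. Of 6 gastric markers, which include makers of the MUC5AC mucus, none averaged 1 FPKM, and TFF2 was at 0 in all libraries. The gastric sum ran from 0.137 to 0.344 FPKM in untreated vector and from 0.707 to 2.15 FPKM in untreated GPD1 libraries. In the latter it was mostly TFF1 (1.62, 1.15 and 0.231 FPKM) and GKN2 (0.485, 0.259 and 0.384 FPKM). GKN1 and CTSE were at 0 there. CLDN18 averaged 0.0805 FPKM in untreated vector and 0.0801 FPKM in untreated GPD1 cells. Of 4 club cell markers none averaged 1 FPKM and their sum was at most 0.3 FPKM in any library. Of 5 kidney markers 3 averaged 1 FPKM or more, and the sum of all 5 ran from 3.22 to 5.45 FPKM. Of 4 fibroblast markers 1 did, and the sum of all 4 ran from 2.26 to 5.55 FPKM. None of the ciliated, basal and endothelial markers averaged 1 FPKM. The sum of 3 immune markers was 0.273 to 0.797 FPKM in untreated vector and 5.98 to 10.8 FPKM in untreated GPD1 libraries, nearly all of it CD14, while PTPRC reached at most 0.0299 FPKM in any library and CD3E was at 0. The part of these sums in the results was not tested.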

How the data were processed

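The authors deposited 1 table of expression values for 58302 genes in 12 libraries, without naming the unit. It was taken as FPKM as deposited, since values times GENCODE 29 exon length were whole steps (within 0.02, up to 10 steps) for 64.5% to 69.6% of the low values in each library. RPKM would look the same. CASAVA 1.8, HISAT2 2.1.0, edgeR and the build GRCh38/hg38 are listed, per the submitters' processing notes. Which program and annotation gave the values is not stated there. The file's loci matched GENCODE 29 for 97.1% of genes. Per the labels' protocols the kit was NEBNext Ultra, with no strand stated, so reads of an overlapping gene on the other strand cannot be separated.

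The test was limma 3.58.1 run under R 4.3.3 on log2(FPKM + 1), fitted to 4 group means with the prior variance following the level. It covered the 12607 genes averaging 1 FPKM or more, with Benjamini-Hochberg adjustment over them and a threshold of 0.05. The pseudocount of 1 understates changes of low genes. The fit was checked on simulated data. The interaction of GPD1 and metformin came from the same fit. The 8 genes and the 10 lists were chosen with earlier results of these data known, and no test is given for the members in GPD1 contrasts. From each list the text could name up to 3 genes per direction and contrast among those called without overlap, by size, beside the nearest neighbours and the most alike genes. Genes with only a clone name were to be passed over. AC018629.1 and AC106886.5 are exceptions made after their values were seen, as are RAB27A, ANXA8, CD14 and TFF1. TNS2 and TNS3 were also named after their calls were seen. Alternatives were a pseudocount of 0.1, no filter, 3 other scalings, a fit of just the compared groups, a block for replicate number, and each library left out.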

Additional observations from a re-analysis of the deposited data

Results flagged for a closer look

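In some of the genes named beside the members, the difference between GPD1 and vector cells was itself different with metformin than without it. This is by the interaction term of the limma fit on log2(FPKM + 1), with an adjusted p under 0.05 for each of the following. The list genes among them were named for the size of the GPD1 differences that make up this term. Their adjusted p is therefore a description, not a test free of that choice. The share of all tested genes that passed is not given here, so passing is not read as particular to them. The difference rose with metformin for ITGB4 by 1.13 (adjusted p = 3.57e-07), SAMHD1 by 1.19, GALNT1 by 1.29, EGFR by 1.10, AREG by 1.02, SPDEF by 0.79, GALNT18 by 0.58, RARRES1 by 0.56, ANXA8L1 by 0.51, TGFA by 0.30 and S100P by 1.15. It fell for KLF4, where it changed by -1.31 (adjusted p = 1.28e-06), TOLLIP (-1.11), AC018629.1 (-1.06), SRCAP (-1.0), AC106886.5 (-0.89), C1GALT1 (-0.67), MUC13 (-0.55), NAMPT (-0.53), CAMK2N1 (-0.22) and EREG (-0.17). ITGB4 and SAMHD1 were lower in GPD1 cells without metformin and higher with it. The interaction term did not pass for AGR2, FCGBP, RAB27A, ST3GAL1, HBEGF, STRA6, ITGB1, ANXA8, GPX2, FA2H and CD14. Their limma adjusted p ran from 0.0647 for HBEGF to 0.98 for ANXA8.

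The calls for S100P, RARRES1 and AC018629.1 were lost with a pseudocount of 0.1, where S100P was at -0.27. Those for CAMK2N1 and EREG were lost with upper-quartile factors.

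For MUC5B every vector library with metformin lay below every untreated one, with a difference of -0.67 in the unfiltered limma fit (adjusted p = 5.79e-06). Every GPD1 library with metformin lay above every untreated one, but the difference of 0.08 there did not pass (adjusted p = 0.339), and these GPD1 values rest on 35 to 72 reads a library. The difference between the cell types was not tested.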

How the results depend on the processing

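Over the alternatives, 355 of 355 metformin values of the 7 tested members kept their direction and their side of the threshold. TMEM265 in GPD1 cells and in the average was left out, and NPY4R and NPY4R2 were counted separately. Without the filter, 14315 genes passed with metformin in vector cells (9411 with it) and 16287 in the average over cell types (10142 with it), since more genes were tested. The NPY4R2 change of the GPD1 difference with metformin turned from 0.09 to -0.06 with totals without mitochondrial genes. The same change also crossed 0 for CDA, from -0.49 to 0.25 over the alternatives, and for MUC5AC, from -0.07 to 0.2. The cause was not tested.

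Leaving out 1 library at a time gave 8977 to 9387 called genes for metformin in vector cells, 8915 to 9388 in GPD1 cells (9349 with all libraries), 9929 to 10071 for the average, 2078 to 2853 for GPD1 against vector cells without metformin (2688) and 6962 to 7509 with it (7566). For TMEM265 the GPD1 difference with metformin was 2.38 in place of 2.96 without replicate 1 of the treated vector libraries.

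The replicate numbers did not pair the libraries: correlations of same-number deviations ran from -0.065 to 0.056 over 18 pairs, and 4 of the 12 libraries correlated best with their own number. With a replicate block the counts were 9333 for metformin in vector cells, 9253 in GPD1 cells, 10104 averaged, 2374 for GPD1 without and 7446 with metformin. Depth limits most the values with under 100 reads: CDA in vector cells (7 to 34), TMEM265 in both untreated groups (13 to 67) and in replicate 1 of the treated vector libraries (62), MUC5B in GPD1 cells (35 to 72) and in replicate 3 of the treated vector libraries (85), and NPY4R and NPY4R2 in vector cells with metformin (59 to 83).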

Other observations

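CD14, a co-receptor for bacterial lipopolysaccharide that is best known from monocytes, averaged 0.604 FPKM in vector, 0.129 in vector with metformin, 8.66 in GPD1 and 8.36 in GPD1 cells with metformin. It was higher in GPD1 cells by 2.57 and 3.05 on the log2(FPKM + 1) scale (limma adjusted p = 2.84e-06 and 1.57e-07), and it was looked at after its values were seen. S100P averaged 0.127, 3.82, 1.32 and 20.8 FPKM and FA2H 0.580, 4.96, 3.43 and 14.0 FPKM in the same order of groups, so both were higher with metformin and higher in GPD1 cells.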
